A study of Homo sapiens with 6 samples.

Results

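The axon guidance ligands and receptors are the Slits and their Robo receptors, the semaphorins with neuropilins and plexins, the ephrins and Eph receptors, and the netrins with DCC and the UNC5 receptors. Members were found by gene symbol, although the families were picked with earlier results of these data known, and 67 of the 26025 genes in the deposited table belonged to these families. RNA was sequenced from NCI-H1299, a line established from a human non-small cell lung carcinoma, in 2 groups of 3 libraries. NE libraries came from cells given norepinephrine at 10 µM for 48 h, and Ctrl libraries from cells given vehicle for the same time. The labels name that vehicle both DMSO and PBS. All cells had 8 to 12 h in DMEM with 2% FBS before the addition. Titles number the libraries within each group without saying whether they came from separate cultures, so p-values measure only the spread between these libraries, which may be technical. A single cell line was used, and all results are on RNA.

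Values are normalized counts, that is, reads on a gene divided by 1 size factor per library. The 3 Ctrl libraries held 17373654 to 17979206 such reads, and the NE libraries 16852751 to 17325039. One Ctrl library, replicate 3, stood apart, with 7305 genes listed at 0 against 3954 to 4833 in the other libraries. The line's labels were checked against markers. KRT8 and KRT18, keratins of simple epithelia, summed with EPCAM and CDH1 to 27652 to 38803 normalized counts in Ctrl and 11914 to 14050 in NE libraries, while EPCAM and CDH1, the adhesion molecules that define epithelial sheets, were under the filter on low values. VIM, CDH2 and FN1, markers of mesenchymal cells, were abundant, with a sum of 63235 to 80892 in Ctrl and 49174 to 62819 in NE libraries. Most of that sum was VIM, which fell by 0.38 on the log2 scale (limma adjusted p = 0.0462), whereas CDH2 rose by 0.64 (adjusted p = 0.00172) and FN1 by 0.77 (adjusted p = 0.000458). After the GC correction described below, FN1 was at 0.49 (limma adjusted p = 0.00244). VIM was then at -0.23 (adjusted p = 0.325) and CDH2 at 0.16 (adjusted p = 0.188), so neither passed.

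These families were first described as signals that steer growing axons by attraction or repulsion. Secreted Slits bind Robo receptors, secreted class 3 semaphorins bind a neuropilin that signals through a plexin, membrane semaphorins bind plexins directly, and netrins bind DCC or UNC5 receptors. Ephrins are tethered to the membrane and bind Eph receptor tyrosine kinases on the touching cell, so both cells receive a signal. The same molecules act on blood vessels and on epithelial and tumour cells, where they alter adhesion, migration and the cytoskeleton. Norepinephrine acts on adrenergic receptors, and the beta subtypes raise cyclic AMP in the cell.

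Of the 67 members, 49 had a mean of at least 10 normalized counts and were tested with limma on log2(normalized count + 1). A gene was called when its Benjamini-Hochberg adjusted p was under 0.05 and its absolute log2 fold change was at least 1. With NE, 10 members were called higher and 7 lower, which is 20.4% and 14.3% of the members tested, beside 7.47% and 6.55% of all 15013 genes tested. Called higher were UNC5C, SEMA3C, EPHA5, SLIT2, SEMA3A, ROBO1, SEMA3D, SEMA3F, EPHA7 and NTN4. Called lower were ROBO4, SEMA7A, EPHA2, PLXNA1, SEMA4B, SEMA6B and EFNA2. By adjusted p alone, 14 members rose and 17 fell, or 28.6% and 34.7%, beside 24.6% and 25.5% of all genes tested. Every NE library lay above every Ctrl library for 16 members and below for 18, where the shares over all genes tested were 29.7% and 28.9%. The median log2 fold change of the tested members was -0.04, and that of all genes tested was 0.01, so the set as a whole had no common direction. In RNA from bulk cells, fewer cells of a kind and less RNA per cell cannot be told apart.

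**Figure D1:**
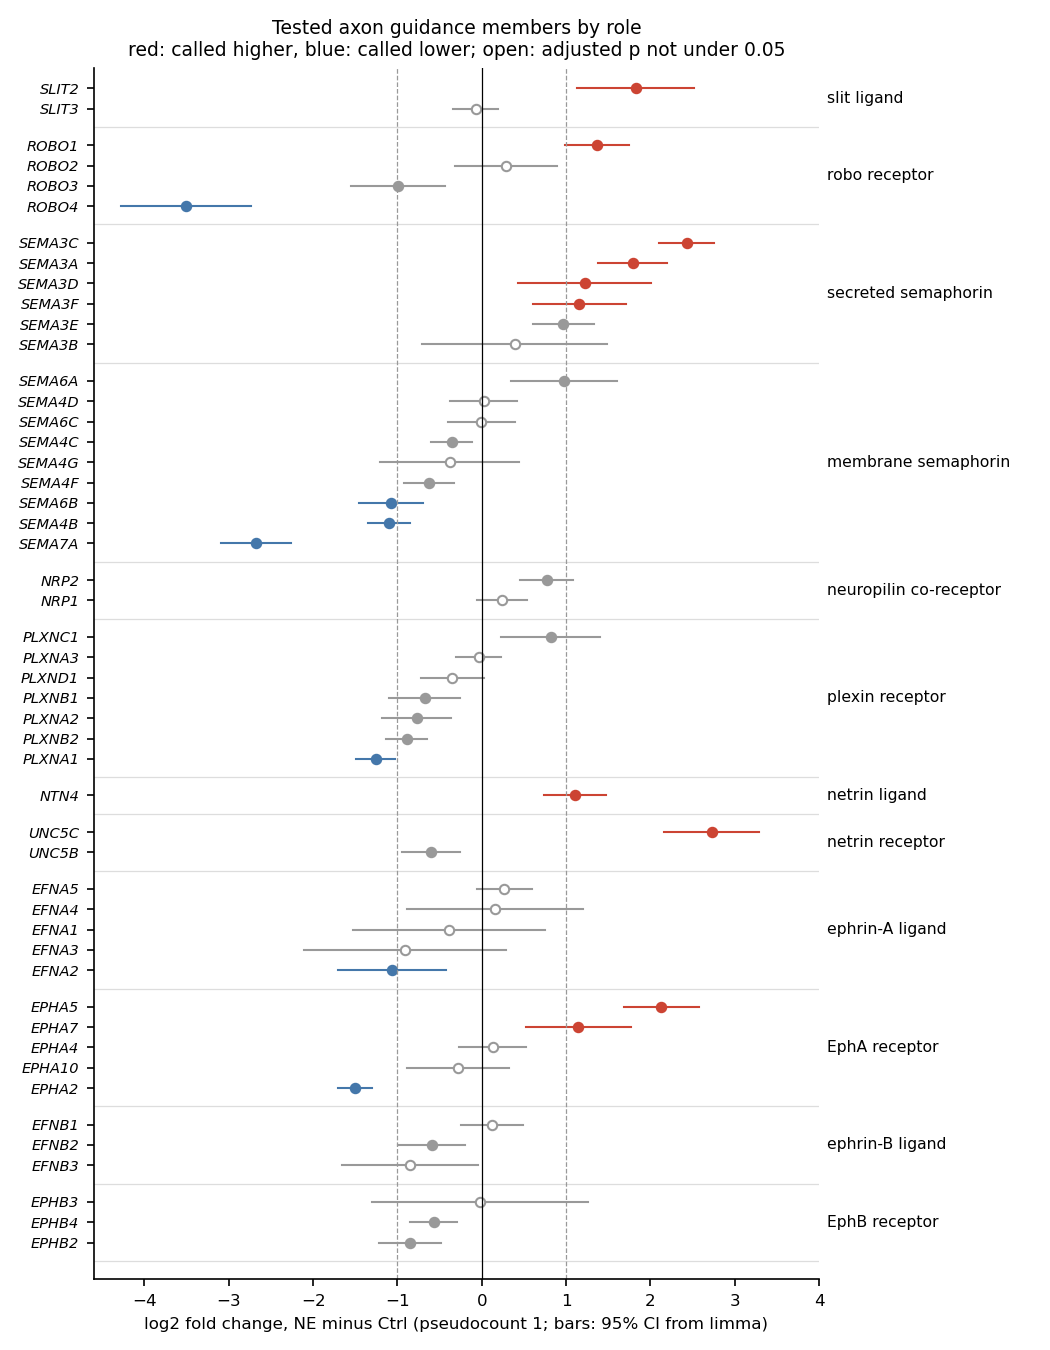
Log2 fold change (NE minus Ctrl) of the 49 tested members on the horizontal axis, grouped by role on the vertical axis, with the 95% interval of limma. Red and blue points are members called higher and lower, filled grey points passed the adjusted p alone and open points did not; secreted semaphorins lie to the right of 0, most plexins to the left, and the Robo receptors span from -3.51 for ROBO4 to 1.37 for ROBO1.

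Base composition moved with these differences. The log2 fold change fell with the GC content of a gene's exons, with a Spearman coefficient of -0.67 over the 49 tested members and -0.64 over 14955 genes with a GC content, as a description across genes that share 6 libraries. The members called higher had a median exon GC content of 41.2%, and those called lower 61.1%, beside 40.7% and 58.7% for all called genes. With a spline on GC content removed from each library, 8 members were called higher and 2 lower, where 3.43% and 2.66% of genes were called. Called under this correction were UNC5C, SEMA3C, SLIT2, SEMA3F, EPHA5, SEMA3A, NTN4 and ROBO1 among the members higher with NE, and ROBO4 and SEMA7A among those lower. The part of base composition in the other differences was not tested, and corrected values are given beside each called member below.

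**Figure D2:**
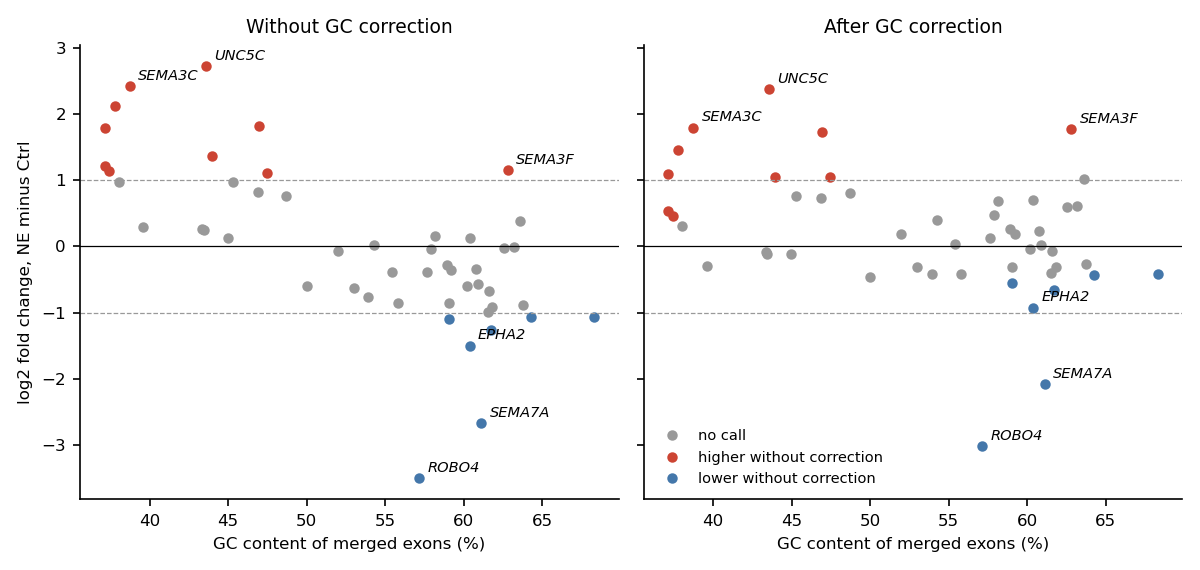
Log2 fold change (NE minus Ctrl) on the vertical axis against the GC content of merged exons, in percent, on the horizontal axis, for the 49 tested members before (left) and after (right) GC correction, with members called higher without correction in red, those called lower in blue and dashed lines at the fold threshold. Most members called higher lie at low GC content and all 7 called lower lie at 57.1% or above, while SEMA3F, at 62.8%, goes against this slope, and after correction only ROBO4 and SEMA7A of the blue points lie past the threshold.

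Cyclic AMP signals in part through CREB, a transcription factor that binds the palindrome TGACGTCA, and promoters of the members were searched for it on both strands. RefSeq promoter sequence (build GRCh38.p14, from 250 bases before to 50 bases after a start) was at hand for 57 of the 67 members. The palindrome stood in 3 of the 57, or 5.26%, namely EPHA2, SEMA4C and SEMA3B, beside 2.25% of 27305 symbols. EPHA2 was called lower, SEMA4C was lower by adjusted p alone, and SEMA3B did not pass the test, so the letters stood in genes with different outcomes. TGACG, the shorter CREB core, which the palindrome contains on both strands, stood in 18 of the 57 members, or 31.6%, beside 28.4% of all symbols. Among members called higher it was found in 4 of 9 with a promoter (UNC5C, NTN4, EPHA7 and SEMA3D), and among those called lower in 2 of 6 (EPHA2 and SEMA7A). CACGTG, the E-box bound by CLOCK and related factors, stood in 4 of the 57 members (SEMA3E, SEMA6D, EPHA8 and SEMA4D), or 7.02%, beside 8.77% of all symbols, and in 0 of the 15 called members with a promoter. A match describes letters and is not a bound site. The 250 bases before a start are printed for EPHA2, where the window with the palindrome adjoins the gene as GENCODE draws it, for SEMA3B, where the window belongs to a RefSeq start further upstream of that gene, and for SEMA3C, the most abundant member that rose, where no searched motif was found. They read 5′ to 3′ on the strand of the gene, with the palindrome in capitals.
EPHA2, chr1:16156070-16156319, minus strand: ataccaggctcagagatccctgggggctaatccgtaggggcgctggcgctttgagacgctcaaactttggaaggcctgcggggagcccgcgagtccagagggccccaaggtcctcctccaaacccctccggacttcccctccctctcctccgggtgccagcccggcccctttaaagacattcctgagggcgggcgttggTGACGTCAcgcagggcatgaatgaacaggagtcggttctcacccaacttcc
SEMA3B, chr3:50259976-50260225, plus strand: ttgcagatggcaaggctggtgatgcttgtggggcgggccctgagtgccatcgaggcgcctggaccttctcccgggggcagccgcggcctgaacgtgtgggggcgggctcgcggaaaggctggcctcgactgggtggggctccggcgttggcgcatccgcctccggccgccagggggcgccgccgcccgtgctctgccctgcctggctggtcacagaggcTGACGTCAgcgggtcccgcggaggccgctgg
SEMA3C, chr7:80922390-80922639, minus strand: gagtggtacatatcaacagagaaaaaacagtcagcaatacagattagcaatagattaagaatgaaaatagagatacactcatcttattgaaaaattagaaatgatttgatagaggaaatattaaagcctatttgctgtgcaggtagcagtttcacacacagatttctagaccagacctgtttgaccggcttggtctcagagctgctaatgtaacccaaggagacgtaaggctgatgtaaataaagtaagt
The first base of the palindrome lies at -51 in EPHA2 and at -31 in SEMA3B, counted from the start. The windows also differ in base composition, with 63.2% and 74.4% GC for EPHA2 and SEMA3B and 36.4% for this start of SEMA3C. A further RefSeq start of SEMA3C, inside the gene, has 77.6% GC in its window from 80919052 to 80919301 and holds none of the searched motifs either.

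The secreted semaphorins are class 3 ligands, most of which repel or attract cells through neuropilins. Of 7 members 6 were tested, 4 were called higher with NE, 5 rose by adjusted p alone and 0 fell, and after GC correction 3 were called higher. SEMA3C, a ligand of both neuropilins that is known in vascular and tumour biology, lies on chromosome 7 (80742538 to 80922359, minus strand, hg38). It read 977, 921 and 1316 normalized counts in Ctrl and 6242, 5624 and 5275 in NE libraries. The lowest NE library lay far above the highest Ctrl library. SEMA3C was 5.38-fold higher with NE (log2 fold change 2.43 ± 0.15 SE, n = 3 per group, limma adjusted p = 1.38e-05), and 1.80 on the log2 scale after GC correction. SEMA3A, the classic repellent that collapses growth cones, gave 132, 149 and 199 in Ctrl and 637, 525 and 493 in NE libraries. Its log2 fold change was 1.79 ± 0.18 (adjusted p = 0.000155), and 1.10 after GC correction. Both ligands were high in all 3 NE libraries and their groups lay far apart.

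SEMA3D and SEMA3F rose from lower levels. SEMA3D, a guidance cue also known in heart and vessel development, read 14.7, 23.9 and 18.6 in Ctrl and 40.5, 63.9 and 34.7 in NE libraries, a log2 fold change of 1.22 ± 0.35 (adjusted p = 0.0166). After GC correction it was 0.53 with an adjusted p of 0.287, and without NE replicate 2 it was 0.97 with an adjusted p of 0.0872, and without Ctrl replicate 1 the adjusted p was 0.0532, so the call, from 38 to 66 reads per NE library, did not hold in these settings. SEMA3F, a ligand of NRP2 described as a repellent of tumour and endothelial cells, gave 84.8, 65.3 and 49.0 in Ctrl and 180, 127 and 135 in NE libraries. Its log2 fold change was 1.16 ± 0.25 (adjusted p = 0.00417) and grew to 1.77 after GC correction. The lowest Ctrl value was that of replicate 3, without which the log2 fold change was 0.96, under the fold threshold. SEMA3E, which binds PLXND1 without a neuropilin, rose by 0.97 ± 0.16 (adjusted p = 0.00131), and by 1.08 without Ctrl replicate 3, 1.005 without NE replicate 2 and 1.009 without NE replicate 3, which passed the fold threshold, but was 0.31 after GC correction with an adjusted p of 0.0831. SEMA3B did not pass the test, with a log2 fold change of 0.39 and a 95% interval from -0.70 to 1.49.

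**Figure D3:**
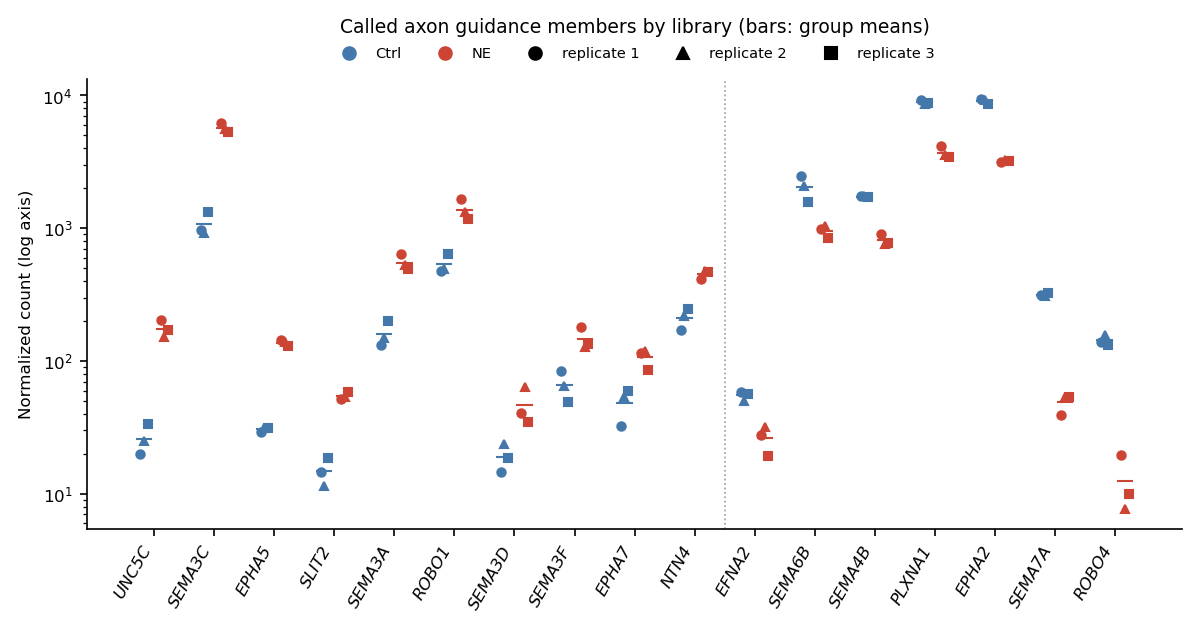
Normalized counts (log axis) of the 17 called members, those higher with NE left of the dotted line and those lower right of it, with 1 point per library (blue Ctrl, red NE, symbols for the replicate) and a bar at each group's mean. For every gene the NE points lie all above or all below the Ctrl points, which calling nearly requires. The same held for 1116 of all 1121 genes called higher and 963 of all 983 called lower. The group means differ most, on the log2 scale of the fit, for ROBO4, UNC5C, SEMA7A and SEMA3C.

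Among the genes between SEMA3C and SEMA3D on chromosome 7, a stretch of 4.44 Mb of hg38 that was chosen after these values were seen, the deposited table lists 10 genes. Of these, 6 were tested, namely SEMA3C, SEMA3E, SEMA3A and SEMA3D with CACNA2D1, a calcium channel subunit, and PCLO, a protein of the presynaptic zone. All 6 rose by adjusted p and 5 were called, where 24.6% and 7.47% of all genes tested did so. After GC correction 4 of the 6 were still higher by adjusted p, and the share of all genes in that setting was not computed. CACNA2D1 had a log2 fold change of 1.24 (0.57 after GC correction) and PCLO of 1.04 (0.58). The 6 genes share a low exon GC content, from 37.2% to 42%, so the stretch and the base composition cannot be told apart. HGF, which encodes hepatocyte growth factor and lies in the same stretch, had a mean of 0 in Ctrl and 0.646 normalized counts in NE libraries and was not tested.

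**Figure D4:**
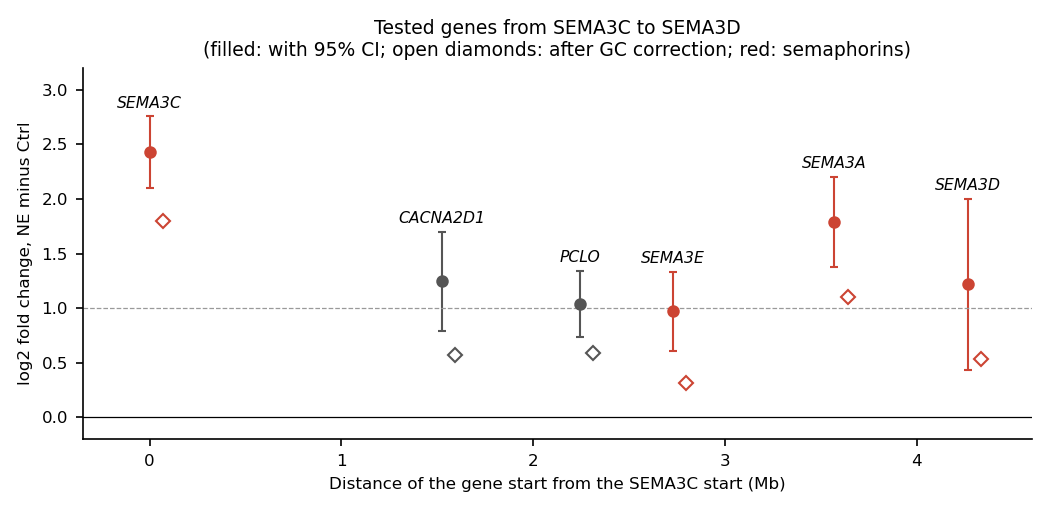
Log2 fold change (NE minus Ctrl) on the vertical axis, as fitted (filled, with the 95% interval) and after GC correction (open diamonds, drawn beside it), for the 6 tested genes from SEMA3C to SEMA3D against distance from the SEMA3C start in Mb, with semaphorins in red. All 6 fitted values lie above 0, from 0.97 for SEMA3E to 2.43 for SEMA3C, and every corrected value is smaller.

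Membrane semaphorins, which signal by contact and can also act in reverse as receptors, were lower or did not pass the test. Of 12 members 9 were tested, 0 were called higher and 3 lower, and by adjusted p alone 1 rose and 5 fell. SEMA7A, the semaphorin held by a lipid anchor that binds integrins and plexin C1, read 312, 307 and 327 in Ctrl and 39.5, 53.3 and 53.9 in NE libraries. Its Ctrl values were close together and all far above the NE values. It was 6.40-fold lower with NE (log2 fold change -2.68 ± 0.18, adjusted p = 2.70e-05), and -2.09 after GC correction. SEMA4B gave 1736, 1740 and 1719 in Ctrl and 908, 759 and 769 in NE libraries (log2 fold change -1.10 ± 0.11, adjusted p = 0.00015). SEMA6B, a transmembrane ligand of class A plexins and the member of this group with the highest level per length, gave 2466, 2091 and 1565 in Ctrl and 989, 1043 and 840 in NE libraries (-1.07 ± 0.17, adjusted p = 0.000989). Neither reached the fold threshold after GC correction, with -0.55 for SEMA4B and -0.42 for SEMA6B. SEMA6B was -0.92 without Ctrl replicate 1 and -0.98 without NE replicate 3, and thus sat close to the threshold. SEMA4F fell by 0.63 on the log2 scale (adjusted p = 0.00378) and SEMA4C by 0.36 (adjusted p = 0.0223). After GC correction neither passed, with -0.31 for SEMA4F (adjusted p = 0.121) and an opposite sign, 0.19, for SEMA4C (adjusted p = 0.296). The exception to these falls was SEMA6A, a ligand of class A plexins, which rose by 0.98 ± 0.28 (adjusted p = 0.0166) from 37.2 to 60.7 normalized counts in Ctrl to between 69.7 and 119 in NE libraries. It passed the fold threshold without Ctrl replicate 1 (1.14) and without NE replicate 2 (1.20), and was 0.76 after GC correction with an adjusted p of 0.0574.

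The receptors of the semaphorins are neuropilins and plexins. NRP1, the co-receptor for SEMA3A and for VEGF, did not pass the test, with a log2 fold change of 0.24, a 95% interval from -0.05 to 0.54 and an adjusted p of 0.154. NRP2, the co-receptor that prefers SEMA3F and SEMA3C, rose by 0.77 ± 0.14 (adjusted p = 0.00194), and was 0.81 after GC correction. Of 9 plexins, the signalling receptors, 7 were tested, 0 were called higher and 1 lower, and 1 rose and 4 fell by adjusted p alone. PLXNA1, a partner of neuropilins, read 9219, 8587 and 8797 in Ctrl and 4157, 3539 and 3442 in NE libraries. All NE values were far below the lowest Ctrl value. Its log2 fold change was -1.26 ± 0.10 (adjusted p = 7.22e-05), and -0.66 after GC correction. PLXNB2, an abundant plexin that binds class 4 semaphorins, fell by 0.89 (adjusted p = 0.000324), PLXNA2 by 0.77 (adjusted p = 0.00677) and PLXNB1, the receptor of SEMA4D, by 0.68 (adjusted p = 0.0147). After GC correction PLXNB2 was at -0.26 and PLXNB1 at -0.08. PLXNC1, a receptor of SEMA7A, rose by 0.82 ± 0.26 (adjusted p = 0.0261), from 30.1 to 49.0 in Ctrl to between 63.9 and 81.3 in NE libraries, while SEMA7A fell. After GC correction PLXNC1 was at 0.73 with an adjusted p of 0.0602. PLXNA3 and PLXND1 did not pass the test, with 95% intervals from -0.30 to 0.23 and from -0.72 to 0.02.

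Members of the Robo receptor family went in different directions. ROBO4, a receptor best known from endothelial cells, had the largest fall of the tested members, from 140, 157 and 132 normalized counts in Ctrl to 19.8, 7.75 and 10.1 in NE libraries. These are 134, 151 and 135 reads against 20, 8 and 11. ROBO4 was 11.4-fold lower (log2 fold change -3.51 ± 0.34, adjusted p = 0.00013) and -3.02 after GC correction. ROBO4 lies on chromosome 11 (124883691 to 124898500, minus strand), and 18% of its exon bases are shared with exons of other genes, whose strand was not compared. Whether the counting used strand is not given in the sources used here, so reads of the genes that overlap it cannot be told apart from its own. Of 10 endothelial markers 7 were tested and 1, EGFL7, was called lower, while ESAM fell by adjusted p alone. After GC correction EGFL7 was at -0.37 (limma adjusted p = 0.0425) and ESAM at -0.60 (adjusted p = 0.0866), so neither reached the fold threshold. PECAM1, VWF, KDR, ERG and TIE1 did not pass the test, with log2 fold changes from -0.93 for VWF to 0.46 for ERG. CDH5, CLDN5 and TEK were under the filter, with 0 to 9.80 normalized counts. The sum of the 10 was 529 to 664 in Ctrl and 307 to 339 in NE libraries, most of it from EGFL7, and the part of these genes in the fall of ROBO4 was not tested.

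ROBO1, the widely expressed Slit receptor on chromosome 3 (78597239 to 79767998, minus strand), read 474, 489 and 640 in Ctrl and 1665, 1319 and 1167 in NE libraries. It was 2.58-fold higher (log2 fold change 1.37 ± 0.17, adjusted p = 0.000316), and 1.05 after GC correction. With a correction for GC content and exon length together it was 0.95, under the fold threshold. ROBO3, which lies 2219 bases from ROBO4 on the opposite strand, gave 579, 532 and 299 in Ctrl and 188, 231 and 266 in NE libraries. The value of Ctrl replicate 3 lay nearer the NE libraries than the other Ctrl libraries. The log2 fold change of ROBO3 was -0.995 ± 0.25 (adjusted p = 0.00916) and -1.29 without Ctrl replicate 3, -1.01 without NE replicate 2 and -1.11 without NE replicate 3, each past the fold threshold. After GC correction ROBO3 was at -0.40 with an adjusted p of 0.0955. ROBO2 did not pass the test, at 0.29 with a 95% interval from -0.31 to 0.90. The level of ROBO1 per kb of exon was 2.03, 1.87 and 2.90 times that of ROBO4 in Ctrl libraries and 50.5, 102 and 69.5 times in NE libraries.

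Of the Slits, SLIT2, the ligand best known for repelling axons at the midline, rose from 14.7, 11.4 and 18.6 in Ctrl to 51.4, 53.3 and 58.5 in NE libraries. Its log2 fold change was 1.82 ± 0.31 (adjusted p = 0.00135) and 1.74 after GC correction, from 11 to 19 reads against 52 to 64. SLIT3, the Slit with the highest level per length, did not pass the test, with 462 to 505 in Ctrl and 426 to 484 in NE libraries and a 95% interval from -0.34 to 0.20. SLIT3 made up 83.3% to 96.9% of the summed Slit level per kb in the 6 libraries, so this sum was 36.1 ± 0.39 (SD) in Ctrl and 37.7 ± 1.62 in NE libraries.

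Netrin signalling was represented by few genes. UNC5C, a repulsive netrin receptor and dependence receptor, had the largest rise of the tested members. It lies on chromosome 4 (95162504 to 95549206, minus strand) and read 19.9, 24.9 and 33.3 in Ctrl and 205, 151 and 172 in NE libraries. UNC5C was 6.63-fold higher (log2 fold change 2.73 ± 0.25, adjusted p = 0.000103), and 2.39 after GC correction. UNC5B, the most abundant netrin receptor, fell by 0.61 ± 0.15 (adjusted p = 0.00949) but was -0.03 after GC correction. The level of UNC5C per kb was 0.032, 0.0415 and 0.0633 times that of UNC5B in Ctrl libraries and 0.465, 0.393 and 0.523 times in NE libraries. NTN4, a netrin of basement membranes that binds laminin, read 171, 219 and 248 in Ctrl and 413, 477 and 471 in NE libraries (log2 fold change 1.10 ± 0.16, adjusted p = 0.00076), and was 1.06 after GC correction. It was 0.96 without Ctrl replicate 1, its lowest Ctrl library. DCC, the main attractive netrin receptor, had 0 reads in each Ctrl library and 3, 3 and 1 in NE libraries, which is at the floor of 3 reads per library, and no fold is given. UNC5D and UNC5A held at most 5 reads in any library. NTN5 had 9, 2 and 0 reads in Ctrl and 15, 18 and 15 in NE libraries and was called higher when no filter was used and, once past the filter, without Ctrl replicate 3. NTN1, the netrin best known as an attractant, was under the filter with 3 to 21 reads per library.

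The ephrins, ligands of Eph receptors, mostly did not pass the test. Of 5 ephrin-A ligands 1 was called, and of 3 ephrin-B ligands 0 were called. EFNA2 gave 58.6, 49.8 and 56.8 in Ctrl and 27.7, 32.0 and 19.2 in NE libraries, a log2 fold change of -1.07 ± 0.29 (adjusted p = 0.0125). It was -0.43 after GC correction with an adjusted p of 0.315, and -0.86 without NE replicate 3. EFNA5, the leading ephrin-A, was at 0.27 with a 95% interval from -0.06 to 0.60, although its lowest NE library (235) lay above its highest Ctrl library (228). EFNB2, a marker of arterial vessels that also serves as a ligand of EPHB4, fell by 0.60 (adjusted p = 0.0207), and was -0.46 after GC correction with an adjusted p of 0.0968. Of its exon bases, 36.4% are shared with exons of other genes, with the limit given above for ROBO4. EFNB1 was at 0.12 with a 95% interval from -0.25 to 0.49, and at 0.70 after GC correction with an adjusted p of 0.00567. EFNB3 was at -0.85 with an adjusted p of 0.0732.

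Of 8 tested Eph receptors, EPHA2 was called lower, EPHA5 and EPHA7 were called higher, EPHB2 and EPHB4 fell by adjusted p alone, and EPHA4, EPHA10 and EPHB3 did not pass the test. EPHA2, a receptor tyrosine kinase abundant in many carcinoma cells, lies on chromosome 1 (16124337 to 16156069, minus strand), directly after the promoter window shown above. EPHA2 read 9357, 9193 and 8664 in Ctrl and 3171, 3251 and 3185 in NE libraries. The group means were 9071 ± 362 (SD) and 3203 ± 42.8, so the difference was far larger than the spread within either group. EPHA2 was 2.83-fold lower (log2 fold change -1.50 ± 0.09, adjusted p = 1.38e-05), and -0.93 after GC correction, which passed the adjusted p (0.000166) and missed the fold threshold. EPHA5, a receptor known from the nervous system, read 29.3, 31.1 and 31.4 in Ctrl and 144, 140 and 129 in NE libraries (log2 fold change 2.13 ± 0.20, adjusted p = 0.00011; 1.46 after GC correction). EPHA7, also known from the developing brain, gave 32.5, 53.9 and 59.8 in Ctrl and 115, 119 and 85.9 in NE libraries (1.14 ± 0.28, adjusted p = 0.00754), but was 0.46 after GC correction with an adjusted p of 0.172, and 0.88 without Ctrl replicate 1. Of 5 EphB receptors 3 were tested and 0 were called. EPHB4, the receptor of EFNB2, fell by 0.57 (adjusted p = 0.0044), EPHB2 fell by 0.85 (adjusted p = 0.00259), and EPHB3 was at -0.02 with a wide 95% interval from -1.30 to 1.26. After GC correction EPHB4 was at 0.02 and EPHB2 at -0.41.

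Levels were compared between genes as normalized counts per kb of exon, with exons merged from GENCODE v44. Summed over all members of a role in the table, secreted semaphorins went from 240 ± 38.8 (SD, n = 3) in Ctrl to 1090 ± 99.0 in NE libraries. SEMA3C made up 70% to 75.9% of that sum in Ctrl and 85.4% to 86.3% in NE libraries. The summed EphA level went from 2230 ± 85.0 to 827 ± 14.4, with EPHA2 at 98.1% to 98.5% and then 93.1% to 94.2% of it. Here the rises of EPHA5 and EPHA7 were small beside the fall of EPHA2. Plexins went from 1706 ± 54.7 to 877 ± 92.7, membrane semaphorins from 1110 ± 106 to 596 ± 43.7 and EphB receptors from 486 ± 67.9 to 322 ± 17.8. Netrin ligands went from 51.9 ± 7.75 to 110 ± 8.91, and neuropilins from 148 ± 10.7 to 188 ± 24.4. For these 7 roles the NE and Ctrl libraries did not overlap. The sums carry no GC correction. The leading member of a role is the one with the highest level per kb averaged over the 6 libraries. After GC correction the leading members that rose were at 1.80 (SEMA3C) and 1.06 (NTN4) on the log2 scale. Those that fell were at -0.93 (EPHA2), -0.42 (SEMA6B), -0.26 (PLXNB2, adjusted p = 0.209 by limma) and 0.02 (EPHB4, adjusted p = 0.897), and NRP1 was at -0.11. PLXNA1, whose level per kb lay above that of PLXNB2 in every Ctrl library, was at -0.66. With 3 libraries against 3 the smallest p of an exact two-sided permutation test is 0.10, so the sums are given without a test. The Robo, netrin receptor, ephrin-A and Slit sums had NE to Ctrl ratios between 0.90 and 1.17, and ephrin-B ligands 0.84. Within the Robo and netrin receptor sums the shares of ROBO1 and UNC5B differed without overlap between the groups. ROBO1 was 28.8% to 47.1% of the Robo level in Ctrl and 71.6% to 82.1% in NE libraries, and UNC5B was 92.4% to 95.6% of the netrin receptor level in Ctrl and 65.1% to 69.9% in NE libraries. In Ctrl replicates 1 and 2 ROBO3, at 83.0 and 76.2 per kb, lay above ROBO1, at 42.9 and 44.3. The level of SEMA3C was 0.0709, 0.068 and 0.103 times that of EPHA2 in Ctrl libraries and 1.34, 1.17 and 1.12 times in NE libraries. Without GC correction, the order of SEMA3C and EPHA2 was thus opposite in the groups. Whether the order also differs after that correction was not tested.

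The 18 members under the filter were EPHA1, EPHA3, EPHA8, EPHB1, EPHB6, SEMA3G, SEMA4A, SEMA5A, SEMA6D, SLIT1, PLXNA4, PLXNB3, NTN1, NTN3, NTN5, DCC, UNC5A and UNC5D. They were left out of the test by the filter, but NTN5 was called higher without it. SEMA5B and EPHA6 were not among the 26025 genes in the deposited table under these symbols, and so were not analysed here.

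Genes that act with or downstream of these receptors were followed as a list of 65, of which 62 were in the table and 55 were tested. With NE, 4 were called higher and 5 lower, or 7.27% and 9.09%, beside 7.47% and 6.55% of all genes tested, so these shares were near the background. By adjusted p alone 12 rose and 15 fell, or 21.8% and 27.3%, beside 24.6% and 25.5% of all genes tested. Of 15 tested kinases and adaptors 2 were called higher and 0 lower, of 12 cytoskeletal effectors 0 were higher and 1 lower, and of 10 other guidance cues and receptors 2 were higher and 2 lower. PAK3, a kinase that acts on the cytoskeleton, read 70.2, 92.3 and 71.5 in Ctrl and 266, 306 and 280 in NE libraries (log2 fold change 1.86 ± 0.17, adjusted p = 0.000109). DRAXIN, a secreted repellent that binds DCC, gave 67.0, 87.1 and 79.4 in Ctrl and 23.7, 22.3 and 14.6 in NE libraries (-1.91 ± 0.29, adjusted p = 0.000763). These were the called pathway genes that also passed both thresholds after GC correction, at 1.39 and -1.59. NRCAM, a neural adhesion molecule, rose by 1.25 (adjusted p = 0.00339), and ROCK1, a kinase that drives actomyosin contraction, by 1.05 (adjusted p = 0.000468). ROCK1 was 0.97 without Ctrl replicate 1 and 0.95 without NE replicate 1. CXCR4, the chemokine receptor for CXCL12, rose by 1.04, with an adjusted p of 0.0484 from 10 to 32 reads per library, and it was over 0.05 without any library other than Ctrl replicate 1, from 0.0699 to 0.133. NGEF, an exchange factor that acts downstream of EphA receptors, fell by 1.37 (adjusted p = 0.000182), RRAS, a small GTPase inactivated by plexins, fell by 1.34 (adjusted p = 0.000123), and GPC1, a heparan sulphate proteoglycan, fell by 1.01 (adjusted p = 0.000468). GPC1 lay between -0.97 and -0.93 without Ctrl replicate 1, Ctrl replicate 2 or NE replicate 3, under the fold threshold. CFL1, cofilin, which severs actin, read 13738, 13962 and 5848 in Ctrl and 3991, 5318 and 5845 in NE libraries (-1.06 ± 0.31, adjusted p = 0.0175), and Ctrl replicate 3 lay level with the highest NE library. Its adjusted p was between 0.0519 and 0.0871 without Ctrl replicate 1, Ctrl replicate 2 or NE replicate 1. Exons of other genes share 19% of the exon bases of CFL1, with the limit given above for ROBO4. PTK2, the focal adhesion kinase, did not pass the test, with a 95% interval from -0.13 to 0.32. Of 6 neuronal markers, which were listed because many guidance genes are known from neurons, 4 were in the table and 3 were tested. SNAP25, a synaptic vesicle fusion protein, was called higher at 1.85 (adjusted p = 3.89e-05), while SYP and SYT1 did not pass the test and RBFOX3 was under the filter. The neuronal sum was 446 to 521 in Ctrl and 989 to 1032 in NE libraries, and that of the haematopoietic markers was 0 to 6.28 and 1.98 to 3.87. Most of the rise in the neuronal sum was SNAP25, with means of 173 in Ctrl and 631 in NE libraries. The means of SYT1 were 282 and 356.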

How the data were processed

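NCI-H1299 RNA was sequenced in 3 Ctrl and 3 NE libraries. The authors aligned reads to hg38 with HISAT2 2.0.5 and counted them per gene with featureCounts 1.5.0-p3. Although the methods describe FPKM, the values the authors deposited are a signal on a count scale: in each library, 100% of them were whole multiples of a single step, within a tolerance of 0.01. Without molecular identifiers, counting error understates the error of these reads.

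Log2(value + 1) was compared with limma 3.58.1 (lmFit, eBayes with trend) in R 4.3.3 over genes with a mean of at least 10, with Benjamini-Hochberg adjustment over all of them. Exon length and GC content came from merged GENCODE v44 exons, with 25813 of 26025 identifiers matched. For the GC correction, a natural spline on GC content (5 degrees of freedom) was fitted in each library and subtracted. The fits were checked on simulated data. Alternatives were other pseudocounts, filters, scalings and eBayes settings, no fold criterion, corrections for GC content and length, a replicate block, each library left out, and, on reads recovered from the steps, DESeq2 1.42.0, edgeR 4.0.16 and voom.

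Members and lists were chosen with earlier results of these data known. Named were all called members, the 10 largest differences among members that passed the adjusted p and missed the fold threshold, the member with the highest level per length in each role, and called pathway genes. That level was averaged over the 6 libraries. Other members named in the text were added after their values were seen. A subgroup of the pathway list is not reported here.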

Additional observations from a re-analysis of the deposited data

How the results depend on the processing

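Over 22 alternatives, 7 of the 17 called members (SEMA3C, SEMA7A, ROBO4, UNC5C, SEMA3A, EPHA5 and SLIT2) were called wherever they were tested, and none of the 17 changed direction. Against 10 members higher and 7 lower, correction for GC content gave 8 and 2, for GC content and length 7 and 2, for GC content with the replicate block 8 and 2, and no fold criterion 14 and 17. The shares over all genes were 7.47% higher and 6.55% lower in the main fit, 3.43% and 2.66% with GC correction, and 24.6% and 25.5% with no fold criterion. Against 4 pathway genes higher and 5 lower, these settings gave 1 and 1, 2 and 1, 1 and 1, and 12 and 15, and quantile normalization gave 3 lower. Leaving out each library in turn gave 8 to 11 members higher and 6 to 9 lower, and 2 to 4 pathway genes higher and 3 to 6 lower. The 9 members lower were found without Ctrl replicate 3, and the 3 pathway genes lower without Ctrl replicate 1 and without Ctrl replicate 2. EdgeR called 10 members higher and 8 lower, and DESeq2 11 and 8. Shares over all genes are not given here for edgeR, DESeq2 or the fits with a library left out. Among the genes named by rule, directions reversed for some with no fold call. Under GC correction, with or without the block, log2 fold changes were 0.19 for SLIT3, -0.11 for NRP1, -0.0892 for EFNA5 and 0.0174 for EPHB4, and under GC and length correction 0.037 for SLIT3, -0.21 for NRP1 and -0.10 for EFNA5. The cause was not tested. Replicate numbers are shared between groups, but same-numbered libraries did not deviate together (correlations -0.16, 0.08 and -0.15), so they were not taken as pairs. With the replicate block 10 members were higher and 7 lower, and 3 pathway genes higher and 5 lower. With a mean of at least 50, SLIT2, SEMA3D and EFNA2 were not tested. With no filter NTN5 was called higher.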
